A study of Mus musculus with 12 samples.

Results

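The genes described here are 10 that are used to recognise myofibroblasts, *Postn*, *Cthrc1*, *Fap*, *Acta2*, *Tagln*, *Meox1*, *Ddah1*, *Runx1*, *Lrrc15* and *Ptn*, out of 53801 genes with counts. They were picked by gene symbol, and all 10 were among the 15306 genes with enough counts to be tested. *Cthrc1* was chosen by its own values, because it rose both from sham to day 1 and from day 1 to day 7 in these libraries, so its values are given as a description with no test and counts of changed genes are over the other 9. RNA was taken from the hearts of adult male C57BL/6N mice after sham surgery, 1 day after acute myocardial infarction (AMI) and 7 days after AMI, with 4 hearts and 4 libraries in each of the 3 groups. AMI was made by permanently tying the left anterior descending coronary artery. No harvest day of their own is labelled for sham hearts, and the shared protocol speaks of 0, 1 and 7 days, so the time after surgery and the infarct cannot be told apart here. The samples were labelled as heart without further division, so scar, border and remote muscle were measured together.

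After an infarct, fibroblasts of the heart divide, migrate into the dead muscle and lay down a collagen scar, and those that build actin stress fibers are called myofibroblasts. Periostin (encoded by *Postn*) and CTHRC1 are secreted into the scar matrix, smooth muscle α-actin (*Acta2*) and transgelin (*Tagln*) belong to the contractile apparatus, and fibroblast activation protein (*Fap*) is a surface peptidase. No gene of the set belongs to myofibroblasts alone. *Acta2* and *Tagln* are abundant in vascular smooth muscle, and *Runx1* is a transcription factor of blood cells as well.

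The promoters of 4 of these genes are shown because they stood at the extremes of the measurements below. *Acta2* was the contractile gene that passed both thresholds given below in no comparison. *Postn* had the highest level in day 7 hearts, *Ptn* the largest rise between day 1 and day 7 among the tested genes of the set, and *Lrrc15* was the gene that fell. Each runs 5′ to 3′ on the gene's own strand, from 250 bases before to 50 bases after the start given by RefSeq on GRCm38.p6. RefSeq promoters were at hand for 6 of the 10 genes, and not for *Cthrc1*, *Fap*, *Tagln* and *Meox1*. Capitals mark matches to 5 motifs searched on both strands. These were a CArG-type box with at most 1 exception in its core, the kind of site that serum response factor binds, a RUNX site (TGTGGT), a TEAD site (GGAATG), an AP-1 site (TGANTCA) and the box found near many starts (TATAAA), bound by the general transcription machinery.
Acta2, chr19:34255324-34255623, minus strand: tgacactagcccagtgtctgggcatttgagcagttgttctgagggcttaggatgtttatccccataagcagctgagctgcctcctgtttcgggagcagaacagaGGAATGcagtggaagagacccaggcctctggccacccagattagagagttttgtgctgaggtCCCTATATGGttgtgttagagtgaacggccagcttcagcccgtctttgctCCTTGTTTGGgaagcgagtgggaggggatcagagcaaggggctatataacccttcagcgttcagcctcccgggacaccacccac
Postn, chr3:54360857-54361156, plus strand: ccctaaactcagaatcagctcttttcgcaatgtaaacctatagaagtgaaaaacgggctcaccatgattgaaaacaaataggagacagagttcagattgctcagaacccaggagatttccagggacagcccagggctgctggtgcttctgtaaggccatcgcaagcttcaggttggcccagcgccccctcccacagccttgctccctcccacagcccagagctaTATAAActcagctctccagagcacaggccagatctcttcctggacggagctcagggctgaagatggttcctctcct
Ptn, chr6:36810130-36810429, minus strand: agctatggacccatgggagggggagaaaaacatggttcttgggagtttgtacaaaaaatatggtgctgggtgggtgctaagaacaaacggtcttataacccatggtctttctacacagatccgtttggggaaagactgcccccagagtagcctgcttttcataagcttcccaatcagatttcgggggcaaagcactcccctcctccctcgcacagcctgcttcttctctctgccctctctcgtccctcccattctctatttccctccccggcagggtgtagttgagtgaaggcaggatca
Lrrc15, chr16:30283205-30283504, minus strand: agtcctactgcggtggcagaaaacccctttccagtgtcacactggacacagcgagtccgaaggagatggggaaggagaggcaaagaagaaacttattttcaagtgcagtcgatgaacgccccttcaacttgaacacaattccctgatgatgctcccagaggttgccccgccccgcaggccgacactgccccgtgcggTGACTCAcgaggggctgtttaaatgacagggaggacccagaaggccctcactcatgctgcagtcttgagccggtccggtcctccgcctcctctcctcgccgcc

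The *Acta2* promoter held 2 CArG-type matches, CCCTATATGG at 84 to 75 bases and CCTTGTTTGG at 34 to 25 bases before the start, and 1 TEAD match further upstream. A CArG-type match was present in 9.98% of 32851 promoters of the same length and a TEAD match in 14.7%. *Postn* held a TATA box, found in 13.6% of promoters, *Lrrc15* an AP-1 match, found in 7.81%, and *Ptn* none of the motifs. A second *Postn* start and *Ddah1* held none, while 1 of 2 *Runx1* starts held a pair of RUNX matches after the start (16.8% of promoters hold one) and the other a TEAD match. Only the exact TATAAA was searched, so the tatataa in the *Acta2* window, which lies after the given start, was not counted. Distances rest on the start given by RefSeq. These matches describe letters in the window and are not evidence of binding.

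Between 23204551 and 32166517 counts were obtained per library. CPM are counts scaled to 1 total per library after TMM normalization, which corrects for a few abundant transcripts that fill a library, and TPM, deposited by the authors, also divide by transcript length. Differentially expressed genes (DEGs) were those with at least a 2-fold change (fold change, FC) at a false discovery rate (FDR) under 0.05, over all 15306 genes, in edgeR's quasi-likelihood test, whose adjusted p is given throughout. As a background, 7.79% of all tested genes were higher and 2.98% lower on day 1 than in sham hearts, 8.55% were higher and 2.69% lower on day 7 than on day 1, and 15.3% were higher and 5.88% lower on day 7 than in sham hearts. The scaling matters for this balance. With library sizes alone in place of TMM, the median log2 FC of all genes moved from -0.01 to 0.26 for day 1 against sham, from 0.02 to 0.15 for day 7 against day 1, and from 0.03 to 0.43 for day 7 against sham, and the last comparison gave 3633 higher and 318 lower DEGs in place of 2346 and 900. For day 1 against sham the split went from 1192 higher and 456 lower to 1764 and 217, and for day 7 against day 1 from 1308 and 411 to 1626 and 293. Cardiomyocyte markers summed to 80641 to 92844 CPM in sham hearts, 48396 to 61262 on day 1 and 38085 to 47520 on day 7, and 7 of 11 were lower DEGs on day 7 against sham. In whole hearts, more or fewer cells of a type and more or less RNA per cell cannot be told apart.

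**Figure D1:**
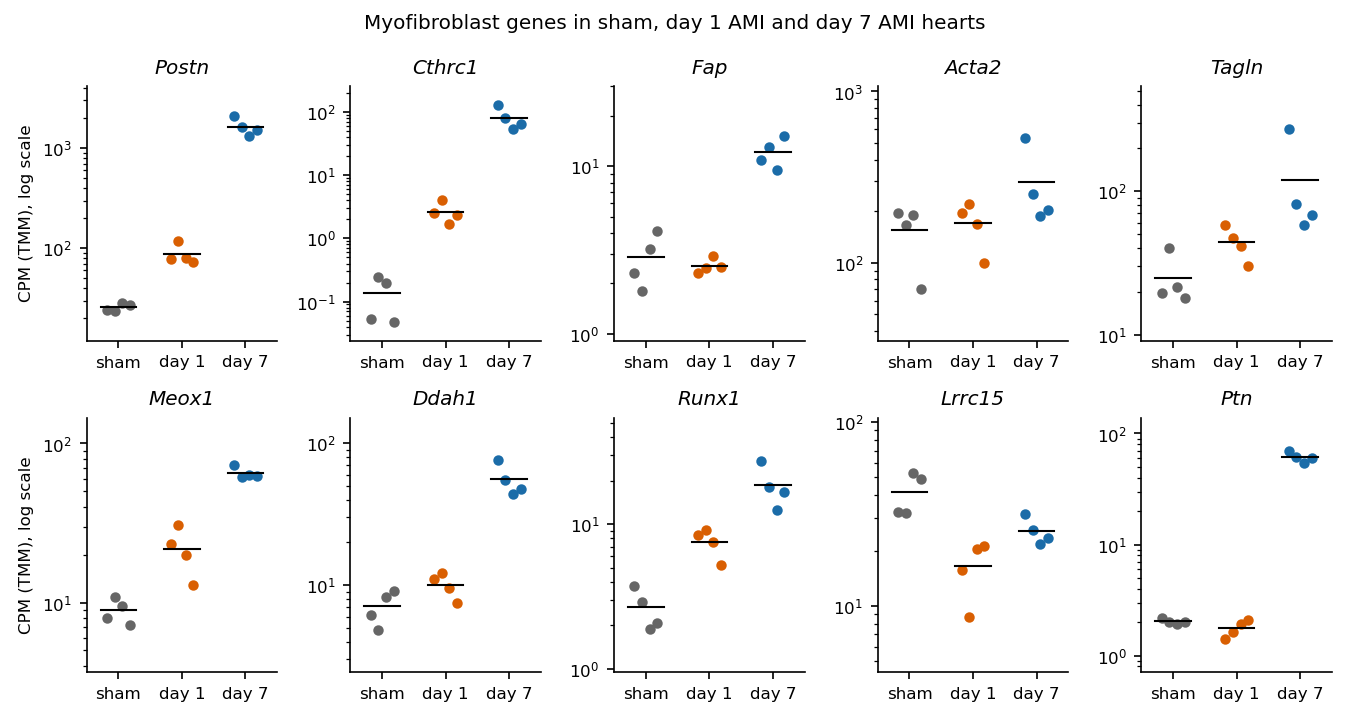
CPM of the 10 genes on a log axis in hearts after sham surgery and after AMI (day 1 and day 7), with 1 point per heart in the order of replicates 1 to 4 and a line at the mean of 4 hearts. Day 7 hearts stood above all sham and day 1 hearts for 7 of the genes (*Postn*, *Cthrc1*, *Fap*, *Meox1*, *Ddah1*, *Runx1* and *Ptn*), while *Acta2* overlapped between groups and *Lrrc15* was highest in sham hearts.

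Of the 9 tested genes, more rose between day 1 and day 7 than on the first day. On day 1 against sham, 3 of 9 genes were higher DEGs (*Postn*, *Meox1* and *Runx1*), 1 was lower (*Lrrc15*) and 5 were not DEGs (*Fap*, *Acta2*, *Tagln*, *Ddah1* and *Ptn*). The median log2 FC of the 9 genes was 0.52. On day 7 against day 1, 7 of 9 were higher, none was lower, and *Acta2* and *Lrrc15* were not DEGs, with a median log2 FC of 1.58. Against sham, the day 7 count was again 7 higher and none lower, with the same 2 genes not DEGs and a median of 2.82. Without day 7 replicate 1, *Tagln* was no longer a DEG on day 7 against day 1 (log2 FC 0.64, adjusted p = 0.0607). The count of 7 in that comparison thus rested in part on 1 heart. The genes were picked with results of these libraries known, so that these counts, read beside the background shares above, describe the set and do not test it.

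To ask whether a gene's later change differed from its first change, the difference between both steps, (day 7 minus day 1) minus (day 1 minus sham), was tested in the same fit. This difference was positive for 5 of 9 genes, *Postn*, *Fap*, *Ddah1*, *Lrrc15* and *Ptn*, and negative for none, where 15.9% of all genes were positive and 17.1% negative at an FDR below 0.05. It ranged from 1.95 ± 0.374 (SE) on the log2 scale for *Ddah1* (adjusted p = 0.00154) to 5.29 ± 0.239 for *Ptn* (adjusted p = 2.95e-08). For *Acta2* it was 0.65 with a 95% interval from -0.59 to 1.88, for *Tagln* 0.60 (-0.86 to 2.07), for *Meox1* 0.30 (-0.38 to 0.99) and for *Runx1* -0.21 (-1.07 to 0.65). No difference between the steps was detected for these last 4 genes. A positive difference need not mean a large later rise. For *Lrrc15* (1.97 ± 0.435) the log2 FC was -1.33 on day 1 and 0.63 from day 1 to day 7, the latter no DEG. The steps cover unequal lengths of time, so a larger later step is not a faster rise. The 95% intervals take the SE with a normal distribution, so they are somewhat narrow for the quasi-likelihood test used here.

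**Figure D2:**
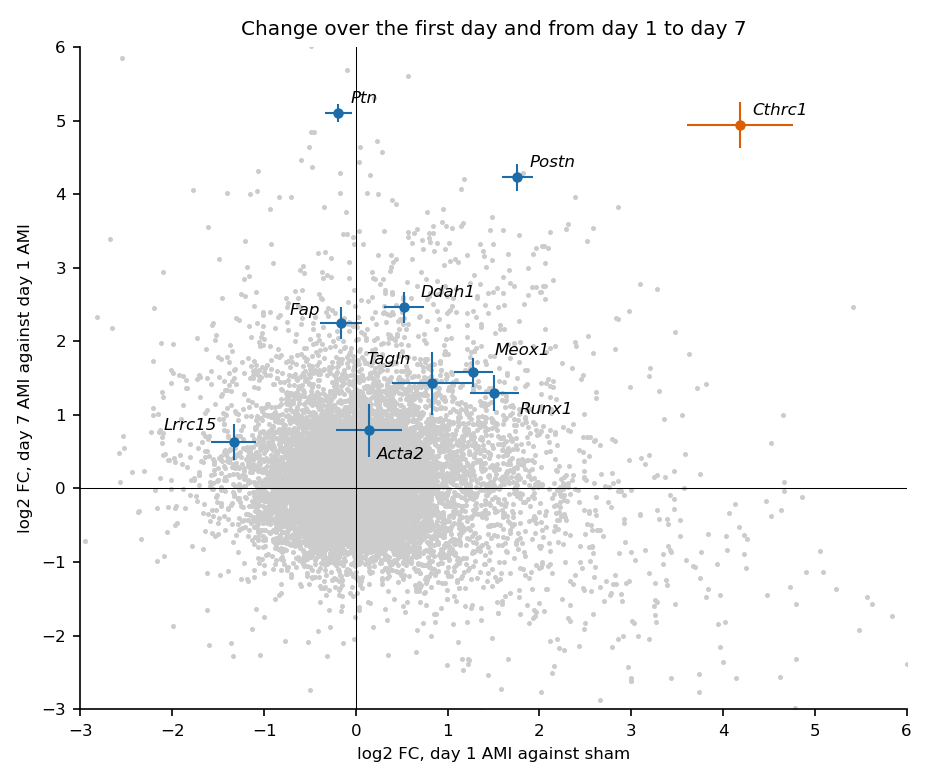
Log2 FC of day 1 AMI against sham (x axis) and of day 7 AMI against day 1 AMI (y axis), with the 10 genes as points with bars of 1 SE (blue, and orange for *Cthrc1*, chosen by these values) and the tested genes in gray, of which 54 lie outside the axes. *Ptn* and *Fap* sat close to 0 on the x axis and above 2 on the y axis, *Postn* and *Cthrc1* to the upper right, *Lrrc15* to the left and *Acta2* within the cloud of all genes; both axes use the day 1 hearts, so the x and y values are not independent.

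Of the secreted proteins, *Postn* (chromosome 3, GRCm38 54361109 to 54391037), which encodes a matrix protein that binds collagen and integrins, had the highest level on day 7. *Postn* stood at 24, 23.7, 28.5 and 26.8 CPM in sham replicates 1 to 4, at 78.5, 118, 79.4 and 73.5 on day 1, and at 2092, 1638, 1311 and 1516 on day 7. No heart of one group overlapped with another. *Postn* rose 3.4-fold on day 1 (log2 FC 1.76 ± 0.167 SE, adjusted p = 1.07e-05) and a further 18.7-fold by day 7 (4.23 ± 0.181, adjusted p = 2.12e-09), 63.6-fold above sham in all (5.99 ± 0.198, adjusted p = 1.18e-10). It ranked 116 among all genes by mean TPM on day 7 and 6031 in sham hearts.

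*Cthrc1* (chromosome 15, 39076932 to 39087121) encodes a secreted glycoprotein with a short collagen repeat and was close to undetected in sham hearts, where the libraries held 1, 6, 4 and 1 counts. It reached 2.49, 4.03, 1.67 and 2.3 CPM on day 1 and 128, 78.7, 53.4 and 64.9 CPM on day 7. Pooled over hearts, 12 counts in sham and 324 on day 1 give a ratio of 18.8 with a 95% counting interval from 10.6 to 36.8, and day 7 over day 1 gives 31.3 (28 to 35). These intervals are exact, cover counting error and not the spread between hearts, and carry no test, since this rise chose the gene. *Cthrc1* went from rank 15300 of all genes by TPM in sham hearts to 721 on day 7.

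*Ptn* (chromosome 6, 36714929 to 36810220), which encodes pleiotrophin, a heparin-binding growth factor, had the largest later rise of the 9 tested genes and no detected change on day 1. *Ptn* stood at 2.19, 2.01, 1.94 and 2.01 CPM in sham hearts and at 1.41, 1.64, 1.93 and 2.11 CPM on day 1, so the groups overlapped (log2 FC -0.19 ± 0.144, adjusted p = 0.307). This small difference turned to 0.08 with library sizes alone, so *Ptn* has no direction on day 1. All 4 day 7 hearts, at 69.6, 61.2, 53.8 and 60 CPM, lay far above, and the rise over day 1 was 34.2-fold (5.10 ± 0.126, adjusted p = 8.44e-12). *Ptn* ranked 16 of 15306 genes by this FC. It also varied little between hearts on day 7, with a coefficient of variation of 10.7%, against 20.2% for *Postn*.

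Of the surface proteins, *Fap* (chromosome 2, 62500943 to 62574075), a peptidase that cleaves collagen fragments and other substrates, had no detected change on day 1 either and stayed at low levels. *Fap* was at 2.3, 1.81, 3.2 and 4.11 CPM in sham hearts, at 2.29, 2.48, 2.91 and 2.49 CPM on day 1, and at 10.9, 13.1, 9.48 and 15.1 CPM on day 7. The day 1 hearts lay inside the sham range (log2 FC -0.16 ± 0.232, adjusted p = 0.604, and 0.11 with library sizes alone), and day 7 hearts did not overlap with them. The rise over day 1 was 4.76-fold (2.25 ± 0.221, adjusted p = 3.65e-06). *Fap* was the gene in which day 7 replicate 1 was not the highest heart.

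*Lrrc15* (chromosome 16, 30269302 to 30283256), a leucine-rich repeat membrane protein used as a marker of fibroblasts in scars and tumors, went against the name of the set. *Lrrc15* was highest in sham hearts, at 32.6, 32, 52.9 and 49.1 CPM, and stood at 15.6, 8.71, 20.5 and 21.2 CPM on day 1 and 31.5, 25.8, 21.6 and 23.4 CPM on day 7. All day 1 and day 7 hearts were below every sham heart. The gene fell by 1.33 ± 0.244 on the log2 scale on day 1 (adjusted p = 0.00075), or 2.52-fold. In limma on log2(TPM + 1) the value was -0.89, under the FC minimum, so that none of the 9 genes was then a lower DEG. Between day 1 and day 7 the log2 FC was 0.63 ± 0.242 (adjusted p = 0.0449) and against sham it was -0.70 ± 0.24 (adjusted p = 0.0208), both short of the FC minimum. The deficit on day 7 depended on the scaling, at -0.31 with library sizes alone and -0.11 on log2(TPM + 1), and mean TPM was 8.94 in sham, 4.42 on day 1 and 8.06 on day 7.

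On day 7 the contractile genes varied most between hearts, with coefficients of variation of 55.7% for *Acta2* and 84.9% for *Tagln*. *Acta2* (chromosome 19, 34241090 to 34255590) was at 195, 166, 190 and 70.1 CPM in sham hearts, at 195, 220, 169 and 100 CPM on day 1 and at 538, 251, 187 and 203 CPM on day 7. The groups overlapped in every comparison, and day 7 replicate 1 stood above every other heart. The log2 FC was 0.14 ± 0.359 on day 1 (adjusted p = 0.782), 0.79 ± 0.36 from day 1 to day 7 (adjusted p = 0.0874) and 0.92 ± 0.361 on day 7 against sham (adjusted p = 0.0394), a 1.9-fold difference short of the FC minimum of 2. The call on day 7 against sham rested on the scaling and on single hearts. It passed both thresholds with library sizes alone (1.32) and in limma on log2(TPM + 1) (1.44), without sham replicate 1 (1.05) or 3 (1.03) or day 7 replicate 3 (1.09) or 4 (1.07), and stood between 0.46 and 1.09 over all hearts left out in turn. No stretch of 75 bases of the *Acta2* transcripts is shared with another annotated gene, the other actins included.

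*Tagln* (chromosome 9, 45929619 to 45936058), an actin-binding protein, was at 19.4, 40.5, 21.4 and 18.1 CPM in sham hearts, at 58.3, 47.4, 41.5 and 30.1 CPM on day 1, and at 271, 81.1, 58.1 and 68.1 CPM on day 7. One sham heart and one day 7 heart lay well above the others of their group, and the lowest day 7 heart, at 58.1 CPM, overlapped with the highest day 1 heart, at 58.3 CPM. The log2 FC was 0.83 ± 0.435 on day 1 (adjusted p = 0.141), 1.43 ± 0.43 from day 1 to day 7 (adjusted p = 0.0137) and 2.26 ± 0.446 on day 7 against sham (adjusted p = 0.000554). Without day 7 replicate 1, the step from day 1 to day 7 was 0.64 (adjusted p = 0.0607) and no longer a DEG, and day 7 against sham was 1.47. An antisense gene on the opposite strand, *Gm48529*, covers 62.4% of the exon bases of *Tagln*, and the strand counted is not given in the sources used here, so that reads of the pair may have been mixed or set aside and the values of *Tagln* are uncertain. *Gm48529* itself was counted at 0.914 to 5.36 CPM.

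Because smooth muscle also makes *Acta2* and *Tagln*, both were set beside 8 smooth muscle markers, *Myh11*, *Cnn1*, *Smtn*, *Lmod1*, *Actg2*, *Synpo2*, *Mylk* and *Mustn1*. Their summed level was 389 to 454 CPM in sham hearts, 367 to 456 on day 1 and 397 to 531 on day 7. In sham hearts most of it came from *Synpo2* (mean 187 CPM) and *Smtn* (152 CPM). *Myh11* was at 41.2, *Mylk* at 25.9, *Mustn1* at 4.75, *Lmod1* at 3.94, *Cnn1* at 2.43 and *Actg2* at 0.932 CPM. The sums and the ratios below thus follow mainly *Synpo2* and *Smtn*, and do not give the level per smooth muscle cell. On day 7 against sham *Synpo2* was at -0.28 ± 0.102, *Smtn* at 0.06 ± 0.0943 and *Myh11* at 0.13 ± 0.235 on the log2 scale, none a DEG. Mean *Myh11* was 47.6 CPM on day 1 and 45.2 CPM on day 7. On day 7 against sham, where 15.3% of all genes were higher DEGs, 2 of 8 were, *Cnn1* (log2 FC 2.57 ± 0.555, and 1.76 without day 7 replicate 1) and *Actg2* (3.81 ± 0.838, and 2.17 without it). *Tagln* per summed smooth muscle CPM was 0.0448 to 0.0893 in sham hearts, 0.0821 to 0.128 on day 1 and 0.146 to 0.511 on day 7, so the day 7 hearts lay above the rest. For *Acta2* the same ratio was 0.18 to 0.479 in sham, 0.273 to 0.536 on day 1 and 0.472 to 1.01 on day 7, with overlap between the groups. The highest ratio of both genes was in day 7 replicate 1, which also held the most smooth muscle marker RNA, with *Actg2* at 40.2 CPM against 1.99 to 8.35 CPM in the other day 7 hearts and *Cnn1* at 33.1 against 6.53 to 10.9 CPM. Those were the most extreme of the 8. The other 6 stood in that heart at 1.08 (*Smtn*) to 1.99 (*Lmod1*) times the mean of the other day 7 hearts. No smooth muscle marker was at 0 in all hearts. The part of smooth muscle in the values of *Acta2* and *Tagln* was not tested.

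**Figure D3:**
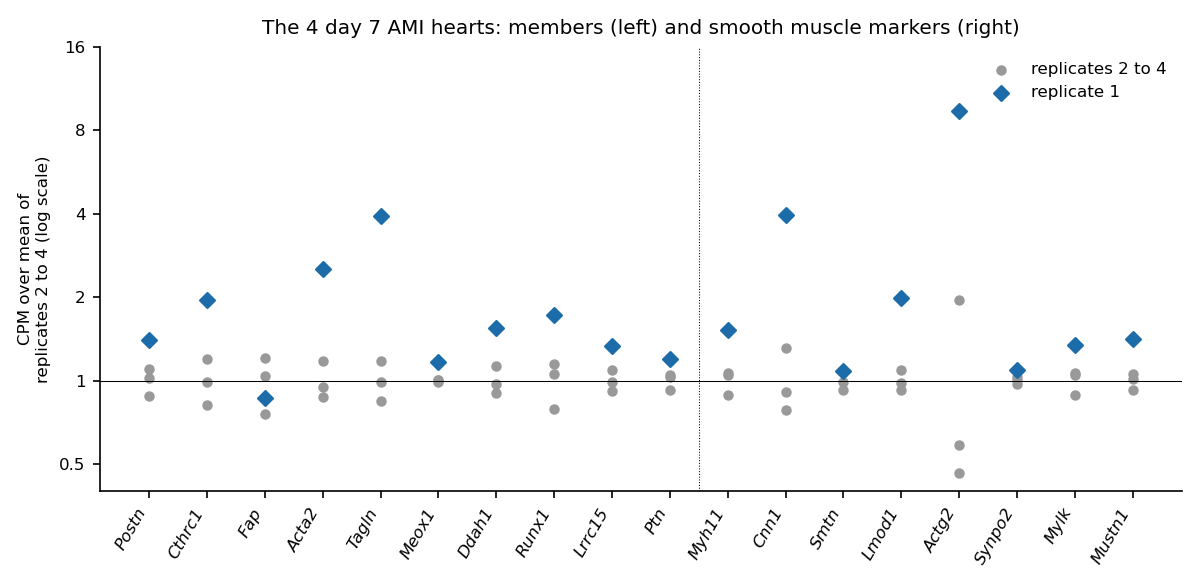
CPM of the 10 genes (left) and of 8 smooth muscle markers (right) in each day 7 AMI heart, divided by the mean of replicates 2 to 4, on a log axis. Replicate 1 (diamonds) was above the other 3 hearts for all of the 10 genes except *Fap*, by 3.93 times for *Tagln*, and 9.39 times for the marker *Actg2*.

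The set differed between hearts of one group. Day 7 replicate 1 was the highest day 7 heart for 9 of 10 genes, and day 7 replicate 3 the lowest for 9 of 10. On day 1, replicate 2 was highest for 6 genes and replicate 4 lowest for 6. The 10 genes of a heart share 1 library, so that these orders describe hearts and are not separate observations. Relative to the mean of the other 3 day 7 hearts, replicate 1 was at 3.93 times for *Tagln*, 2.52 for *Acta2*, 1.95 for *Cthrc1* and 1.73 for *Runx1*, but at 1.17 for *Meox1* and 0.867 for *Fap*. The 32 other genes of activated fibroblasts described below also stood apart in this heart, with a summed level of 26379 CPM against 12361 to 16794 CPM in the other day 7 hearts, while smooth muscle markers summed to 531 against 397 to 413 CPM. *Tnc* was at 4.07 times the mean of the other day 7 hearts, *Inhba* at 3.17, *Fn1* at 2.64 and *Col1a1* at 2.44 times. The part of either list in the values of the 10 genes was not tested.

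Of the regulators, *Meox1* (chromosome 11, 101877510 to 101894374), a homeobox transcription factor of fibroblast activation, rose at each step. *Meox1* was at 8.03, 10.9, 9.46 and 7.27 CPM in sham hearts, at 23.3, 30.7, 20 and 12.8 CPM on day 1 and at 72.8, 61.6, 62.9 and 62.8 CPM on day 7, with no overlap between groups. It rose 2.43-fold on day 1 (log2 FC 1.28 ± 0.21, adjusted p = 0.000354) and 3-fold from day 1 to day 7 (1.58 ± 0.199, adjusted p = 2.79e-05). Its day 7 hearts were the closest to each other of the 10 genes, with a coefficient of variation of 8.01%.

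*Runx1* (chromosome 16, 92601466 to 92826149), a DNA-binding transcription factor that works with CBFβ, also rose at each step. *Runx1* was at 3.76, 2.92, 1.89 and 2.06 CPM in sham hearts, at 8.41, 9.16, 7.52 and 5.2 CPM on day 1 and at 27.3, 18.2, 12.5 and 16.7 CPM on day 7, and the groups did not overlap. The first step was 2.85-fold (1.51 ± 0.272, adjusted p = 0.00067) and the second 2.47-fold (1.30 ± 0.245, adjusted p = 0.000639). On log2(TPM + 0.1) the first step was larger, at 2.19, and on log2(TPM + 1) the later step was 0.89, under the FC minimum. *Runx1* is expressed by leukocytes too, and 10 of 10 leukocyte markers, *Ptprc* among them, were higher DEGs on day 1 against sham, where 7.79% of all genes were. Their summed level was 85.5 to 149 CPM in sham hearts, 319 to 470 on day 1 and 323 to 530 on day 7. None of these markers was a DEG between day 1 and day 7, where 8.55% of all genes were higher and 2.69% lower. The part of leukocytes in the level of *Runx1* was not tested.

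*Ddah1* (chromosome 3, 145758675 to 145894277) encodes an enzyme that breaks down asymmetric dimethylarginine, an inhibitor of nitric oxide synthases. *Ddah1* was at 6.16, 4.85, 8.2 and 9.04 CPM in sham hearts, at 11.1, 12.1, 9.58 and 7.5 CPM on day 1 and at 75.6, 54.8, 44.1 and 47.2 CPM on day 7. Sham and day 1 hearts overlapped (log2 FC 0.52 ± 0.217, adjusted p = 0.0709), and all day 7 hearts lay above both. The later rise was 5.51-fold (2.46 ± 0.21, adjusted p = 1.07e-06).

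Levels can be compared between genes as TPM, which allow for length. Summed over the 10 genes, mean TPM was 164 ± 46.5 (SD, n = 4) in sham hearts, 278 ± 64.8 on day 1 and 1774 ± 580 on day 7. As the mean of the shares in each heart, *Acta2* made up 66% of the sum in sham hearts, 54.2% on day 1 and 16.7% on day 7, while *Postn* went from 7.14% to 16.4% and 56.6%. In sham hearts the order by mean TPM was *Acta2* (112 ± 42.2), *Tagln* (21.3 ± 10.1), *Postn* (10.7 ± 1.3), *Lrrc15* (8.94 ± 2.48), *Meox1* (4.96 ± 1.19), *Ddah1* (2.89 ± 0.69), *Ptn* (1.64 ± 0.0719), *Fap* (1.39 ± 0.494), *Runx1* (0.62 ± 0.241) and *Cthrc1* (0.235 ± 0.162). Hearts of neighbors in this order overlapped for *Postn* and *Lrrc15*, *Lrrc15* and *Meox1*, and from *Ptn* to the end. On day 1 *Acta2* (152 ± 44.1) led *Tagln* (46.2 ± 11.4) and *Postn* (44.6 ± 10.4), which overlapped, then came *Meox1* (14.9 ± 5.02) and then *Ddah1* (4.49 ± 0.688), *Lrrc15* (4.42 ± 1.58), *Cthrc1* (4.28 ± 1.46), *Runx1* (3.17 ± 1.06), *Ptn* (1.78 ± 0.338) and *Fap* (1.63 ± 0.353), where each gene overlapped with the next. On day 7 the order was *Postn* (979 ± 199), *Acta2* (311 ± 175), *Cthrc1* (152 ± 60.2), *Tagln* (149 ± 125), *Ptn* (72.3 ± 9.02), *Meox1* (52.7 ± 4.82), *Ddah1* (34.8 ± 13.2), *Fap* (9.06 ± 2.91), *Lrrc15* (8.06 ± 1.42) and *Runx1* (6.92 ± 3.04). Hearts of neighbors overlapped here except between *Postn* and *Acta2*, *Ptn* and *Meox1*, and *Ddah1* and *Fap*.

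**Figure D4:**
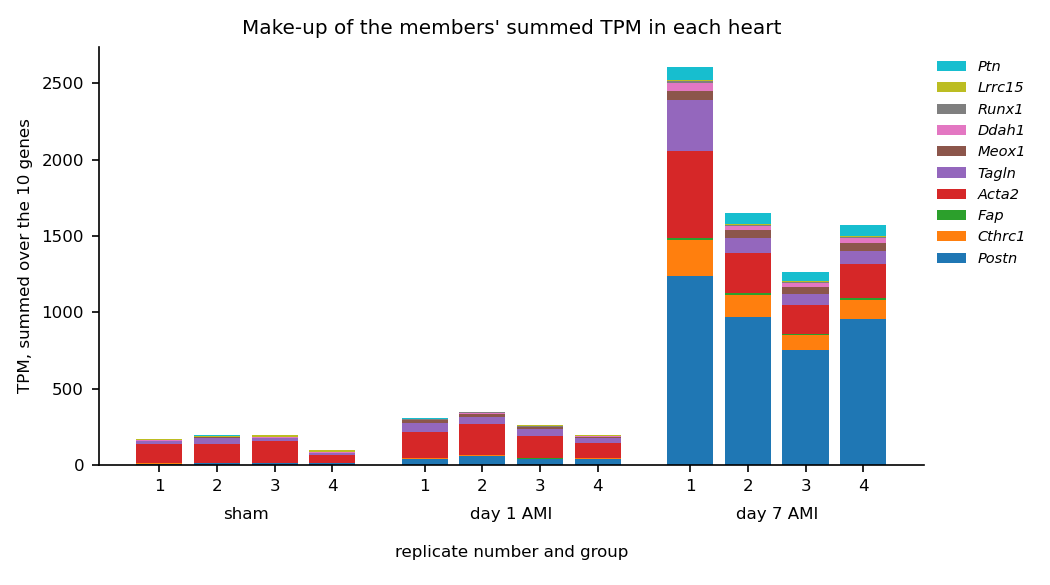
TPM of the 10 genes, stacked, in each of the 12 hearts by group and replicate. The sum was 97 to 197 TPM in sham hearts, with *Acta2* at 50.6% to 75.8% of it, and 1265 to 2608 TPM on day 7, with *Postn* at 58.7% to 60.6% in replicates 2 to 4 and 47.5% in replicate 1.

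Of 14 paralogs, all tested, 6 were higher DEGs on day 1 against sham (7.79% of all genes), 2 on day 7 against day 1 (8.55%) and 10 on day 7 against sham (15.3%), and none was lower. Without day 7 replicate 1 the last 2 comparisons gave 3 higher and 1 lower (*Tgfbi*, at -1.03), and 9 higher. *Tgfbi*, the relative of *Postn*, rose on day 1 (log2 FC 2.20 ± 0.254) and was 0.73 lower on the log2 scale on day 7 than on day 1 (adjusted p = 0.0223, short of the FC minimum). The cytoplasmic actins *Actb* (1.39 ± 0.204) and *Actg1* (1.04 ± 0.208), the *Tagln* relative *Tagln2* (1.18 ± 0.206) and the *Runx1* relatives *Runx2* (2.10 ± 0.274) and *Runx3* (2.27 ± 0.367) were the other DEGs of day 1. Midkine (*Mdk*), the relative of *Ptn*, was at 0.945 CPM in sham hearts, 0.863 on day 1 and 9.47 on day 7, a later rise of 3.46 ± 0.214 (adjusted p = 5.87e-08). *Actg2*, the other gene that rose after day 1 (3.50), stood at 1.85 without day 7 replicate 1. The sarcomeric *Actc1* was at 11154 CPM in sham and 9914 CPM on day 7 and was not a DEG (log2 FC -0.17, adjusted p = 0.458), *Dpp4*, the relative of *Fap*, was not one in any comparison with all hearts (0.96 on day 7 against day 1), and *Meox2* was at 0.49 ± 0.177 on day 7 against sham.

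Genes whose products work with the set were read in the same way. Of 19 such partners, 17 were tested, and *Alk* and *Nos1* had too few counts. None was a DEG on day 1 against sham or on day 7 against day 1, where 7.79% and 8.55% of all genes were higher, and 5 of 17 were higher on day 7 against sham, where 15.3% of all genes were. These were the serum response factor coactivator *Mkl1* (log2 FC 1.02 ± 0.135), the periostin receptor subunits *Itgav* (1.01 ± 0.112) and *Itgb3* (1.25 ± 0.43), the pleiotrophin receptor *Sdc3* (1.23 ± 0.15) and *Nos2* (1.17 ± 0.235). Without day 7 replicate 1, 2 of 17 (*Sdc3* and *Nos2*) were higher DEGs on day 7 against sham, and *Mkl1* (0.97), *Itgav* (0.93) and *Itgb3* (0.91) were not, while *Dpp4*, which binds *Fap* protein, became the 1 DEG on day 7 against day 1 (1.03). *Itgb5* was at 0.90 ± 0.119 and *Cbfb* at 0.61 ± 0.0806, both short of the FC minimum. *Srf* stood at -0.44 ± 0.146 and its coactivator *Myocd* at -0.13 ± 0.116.

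Of 24 genes of stress fibers and other cytoskeleton, 6 were higher DEGs on day 1 against sham (*Vim*, *Actn1*, *Flna*, *Tpm4*, *Myh9* and *Vasp*). Higher on day 7 against day 1 was 1 (*Csrp2*), and on day 7 against sham 13 were (10 without day 7 replicate 1). The shares of all genes were 7.79%, 8.55% and 15.3%. The median log2 FCs of the list were 0.77, 0.27 and 1.05. The largest on day 7 against sham were *Csrp2* (2.13 ± 0.23), *Vim* (2.12 ± 0.119) and *Actn1* (1.81 ± 0.255). *Myl9*, which encodes a myosin light chain of smooth muscle and stress fibers, was at 1.07 ± 0.314 (0.63 and no DEG without day 7 replicate 1) and, like *Acta2*, highest in day 7 replicate 1, at 101 CPM against 40 to 43.1 CPM. No test compared the timing of this list with that of the 10 genes.

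Of 32 other genes of activated fibroblasts, 16 were higher DEGs on day 1 against sham, 21 higher and 1 lower on day 7 against day 1, and 30 higher on day 7 against sham (29 without day 7 replicate 1). Of all genes, 7.79%, 8.55% and 15.3% were higher in these comparisons, and 2.69% lower on day 7 against day 1. Tenascin C (*Tnc*) had its rise on day 1 (log2 FC 6.77, with 0.22 after it, and -0.60 without day 7 replicate 1, adjusted p = 0.0679), secreted frizzled-related protein *Sfrp2* after day 1 (0.20 and then 5.31), and the metalloprotease *Adam12* on day 1 (4.53 and then 0.62, or 0.19 without that heart). *Timp1* was the gene that fell after day 1, by 1.14 on the log2 scale after a rise of 5.09. The fibrillar collagen genes *Col1a1* (1.42 and 3.01) and *Col3a1* (1.57 and 2.22) rose at both steps. This list was also written with earlier results known.

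Markers of resident fibroblasts had a summed level of 2234 to 2683 CPM in sham hearts, 1418 to 1941 on day 1 and 2110 to 2540 on day 7. *Gsn* held most of this sum in sham hearts, at a mean of 1404 CPM, and was at 674 CPM on day 7. Of 13, none was a DEG on day 1 against sham. On day 7 against day 1, 5 were higher (8.55% of all genes) and none lower, with a median log2 FC of 0.91. These were *Mfap5* (2.28), *Lum* (1.97), *Tcf21* (1.48), *Dcn* (1.07) and *Pi16* (1.03). On day 7 against sham 3 were higher (15.3% of all genes), *Mfap5* (2.78 ± 0.231), *Lum* (2.26 ± 0.0885) and *Tcf21* (1.45 ± 0.149), and 2 lower (5.88%), *Scara5* (-1.29 ± 0.207) and *Gsn* (-1.06 ± 0.182). Proliferation genes summed to 24.1 to 56.2 CPM in sham hearts, 40.4 to 50.6 on day 1 and 201 to 297 on day 7. Of 10, 7 were higher DEGs on day 1 against sham (7.79% of all genes), with a median log2 FC of 1.63, and 9 on day 7 against day 1 (8.55%), while *Cenpf*, the most abundant in sham hearts at 24.8 CPM, was at 15.2 CPM on day 1. Pericyte markers summed to 1130 to 1346, 735 to 907 and 1194 to 1355 CPM in the 3 groups, mostly from *Rgs5* and *Abcc9* (means of 512 and 482 CPM in sham hearts). On day 7 against sham 2 of 8 were higher DEGs (15.3% of all genes), *Cspg4* (1.00 ± 0.17) and *Pdgfrb* (1.04 ± 0.137). Neither was one without day 7 replicate 1 (0.92 and 0.93). *Abcc9* was a lower DEG (-1.09 ± 0.147), as were 5.88% of all genes. Endothelial markers summed to 952 to 1117, 851 to 912 and 1307 to 1463 CPM, and epicardial and mesothelial markers to 12.5 to 29.7, 13.1 to 38.7 and 32 to 43.6. Atrial markers summed to 95.4 to 216 CPM in sham replicates 1 to 3 and 875 in sham replicate 4, the heart with the lowest *Acta2*, to 485 to 1266 on day 1 and to 1218 to 1862 on day 7. Most of the sum after AMI was *Nppa*, at 402 to 1122 CPM on day 1 and 1176 to 1803 on day 7, against 55.6 to 555 in sham hearts. On day 7 against sham *Nppa* was a higher DEG (log2 FC 2.73 ± 0.556) and *Bmp10* a lower one (-5.28 ± 1.39). *Myl7* (-0.77), *Myl4* (-0.27) and *Sln* (-0.86) were not DEGs. Erythroid markers stood at 491 to 1181 CPM in the other sham hearts and 4462 in sham replicate 2, the heart with the highest sham *Tagln*, and at 421 to 649 on day 1 and 241 to 970 on day 7. The part of these cell types in the values of the 10 genes was not tested.

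The genes nearest to each of the 10 in profile were found by the root mean square difference of log2 CPM over the 12 hearts, after each gene's mean was taken off, among genes with a mean of at least 1 CPM. *Meox1* had the closest neighbor, *Emp1*, at 0.115, and *Cthrc1* the most distant, *Cemip*, at 1.18. The collagen prolyl hydroxylase subunit *P4ha3* (0.316) and *Ltbp2* (0.366), which binds elastic fibers, were nearest to *Postn*, and *Ltbp2* (1.19) was also second for *Cthrc1*. *Ptn* was nearest to *Sfrp2* (0.354) and *Mfap4* (0.478), *Fap* to *Ift122* (0.255) and *Ppic* (0.274), and *Ddah1* to *Enpp1* (0.198) and *Garem2* (0.201). *Acta2* was nearest to *Myl9* (0.368) and *Kcnmb1* (0.381), a channel subunit of smooth muscle, and *Tagln* to *Ptk7* (0.336) and *Csrp2* (0.374). *Runx1* was nearest to *Sh3pxd2b* (0.262) and *Tyms* (0.274), *Meox1* secondly to *Crmp1* (0.192), and *Lrrc15* to *Lsmem1* (0.273) and *Cd28* (0.28). Among the 10 genes, the closest pair was *Meox1* and *Runx1* (0.365) and the gene farthest from any other was *Cthrc1* (1.21 to *Postn*). All the hearts enter each value, and the libraries shared by the genes limit what such likeness can show.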

How the data were processed

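Whole hearts of 12 mice were sequenced by the authors as 150-bp paired-end reads, 1 library per heart. Per the study's methods and the submitters' processing notes, reads were trimmed with Cutadapt and aligned to GRCm38 (mm10) with STAR 2.4.0j after CASAVA 1.8. The authors deposited raw counts per gene, whole numbers with no normalization, and TPM from RSEM. The counting tool and strand are not given in the sources used here.

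Counts were normalized (TMM) and tested with edgeR 4.0.16 (R 4.3.3), with filterByExpr and 1 quasi-likelihood fit of 3 groups; SEs are those implied by the F statistic. Alternatives were DESeq2 1.42.0, RLE factors, library sizes alone, no filter, only the groups compared, a block for replicate number, limma 3.58.1 on log2(TPM + 1) and log2(TPM + 0.1), no FC minimum, and each heart left out. Code was tested on simulated data. Replicates are separate mice, and same-numbered hearts were not treated as pairs. Libraries of one group differed by a chi-square of at least 9.41 per degree of freedom, so none repeated another. The precision is limited by 4 hearts a group and, for *Cthrc1*, by counts.

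The members and lists were chosen with earlier results of these data known. Named genes were the members, their paralogs and partners, for other lists those called with the largest change on day 7 against sham, and the 2 nearest profiles; others, such as *Timp1*, the 2 collagens, *Actn1* and genes named beside 1 heart, were chosen after their values were seen. Positions are from GENCODE M21.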

Additional observations from a re-analysis of the deposited data

Results flagged for a closer look

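Within groups of 4 hearts, 4 of 30 values checked stood apart from the rest by Dixon's ratio at the 95% level, where chance gives about 1 in 20. *Postn* in day 1 replicate 2 was at 118 CPM against 73.5 to 79.4 CPM in the other day 1 hearts. *Tagln* in sham replicate 2 was at 40.5 CPM against 18.1 to 21.4 CPM, and that heart also had the most erythroid marker RNA of the sham hearts. *Tagln* in day 7 replicate 1 was at 271 CPM against 58.1 to 81.1 CPM, and *Meox1* in the same heart at 72.8 CPM against 61.6 to 62.9 CPM. Both lie in the heart with the most RNA of the activated fibroblast list, at 26379 CPM against 12361 to 16794 CPM in the other day 7 hearts, and of smooth muscle markers, at 531 against 397 to 413 CPM. What set these hearts apart was not tested.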

How the results depend on the processing

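Of 303 values of single genes recomputed with all hearts kept, 288 kept their direction and their side of the threshold, as did 458 of 468 recomputed with 1 heart left out. Over the settings that kept all hearts, 3 to 4 of 9 genes were higher on day 1 against sham, 6 to 8 on day 7 against day 1 and 7 to 8 on day 7 against sham. In limma on log2(TPM + 1), 0 of 9 genes were lower DEGs on day 1 against sham, since *Lrrc15* stood at -0.89, and without a minimum FC 1 of 9, *Lrrc15*, was lower on day 7 against sham. On day 1 against sham, *Fap* turned to 0.11 with library sizes alone, 0.15 on log2(TPM + 1) and 0.25 on log2(TPM + 0.1), and *Ptn* to 0.08, 0.07 and 0.10, none with an adjusted p below 0.05. With 1 heart left out, *Fap* ranged from -0.33 to 0.07 and *Acta2* from -0.10 to 0.33 on day 1, and the difference between steps from -0.19 to 0.92 for *Tagln*, negative without day 7 replicate 1 (-0.19), and from -0.07 to 0.73 for *Meox1*, negative without day 1 replicate 4 (-0.07). *Tagln* on day 1 against sham became a DEG in limma, at 1.14 and 1.18. A replicate block left 3 genes higher on day 1 and 7 higher on day 7 against day 1, and no call of a single gene changed. The correlation of same-numbered hearts ran from -0.244 to 0.229, above 0.1 in 4 of 12 pairs. With 4 hearts a group, such values cannot show whether same-numbered hearts share a batch. The causes of these shifts were not tested. Depth limits *Cthrc1* in sham hearts, at 1 to 6 counts a library.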

Other observations

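*Runx1* had a mean of 0.62 TPM in sham hearts, 3.17 on day 1 and 6.92 on day 7, against 2.65, 7.57 and 18.7 CPM. Its log2 FC on day 1 against sham was 2.19 on log2(TPM + 0.1) and 1.51 in counts, and the later step 1.07 and 1.30. This comparison was chosen after the values were seen, and the reason for it was not tested.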
